A study of Sus scrofa with 14 samples.

Results

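Antigen presentation genes were followed through the mammary gland of the sow and into milk. The set was fixed by name as 8 genes, of which 4 serve major histocompatibility complex (MHC) class II (SLA-DQB1, HLA-DRA, CD74 and CIITA) and 4 serve MHC class I (B2M, TAP1, TAP2 and NLRC5). The deposited matrices hold 30071 gene identifiers. Among the 8 genes, 6 carried their symbol in the files, while CD74 (ENSSSCG00000033262) and TAP2 (ENSSSCG00000025593) stood there by identifier only and were named from the reference gene names. Values were available for 7 of the 8 genes in glands and milk and for all 8 in tissue sections, since TAP1 (ENSSSCG00000025618) was found in the section matrices and is not analysed here for glands and milk.

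The study sampled multiparous Sus scrofa sows in their second breeding cycle at 5 stages, namely day 90 of gestation (G90), day 0 (L0) and day 20 (L20) of lactation, and 2 days (PI2) and 7 days (PI7) after natural involution. Single-nucleus RNA sequencing covered 10 mammary glands, 2 sows at each stage. Spatial transcriptomics (Visium, a slide whose spots each capture RNA from a small area that can hold several cells) covered 1 section of G90 and 1 of PI2. Single-cell RNA sequencing of milk covered 1 library labelled L0 and 1 labelled L20. No sow received a treatment, and the 2 sows of a stage differ from those of every other stage, so stage and animal are separated only by 2 sows a stage. Gland libraries hold RNA of nuclei and milk libraries hold RNA of whole cells, and levels were therefore not compared between them.

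MHC class I molecules display peptides from inside the cell to cytotoxic T cells. Their heavy chain needs the light chain encoded by B2M, the TAP1 and TAP2 proteins pump peptides into the endoplasmic reticulum, and NLRC5 is the transactivator of class I genes. MHC class II molecules display peptides taken up from outside to helper T cells and are typical of macrophages, dendritic cells and B cells. HLA-DRA encodes the alpha chain of the DR molecule (SLA-DR in the pig), SLA-DQB1 the beta chain of the DQ molecule, CD74 the invariant chain that guides class II molecules to endosomes, and CIITA the transactivator on which class II transcription depends. Interferon gamma is a known inducer of both transactivators, and class II has been described on epithelial and endothelial cells under its action.

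The genes lie on 5 chromosomes of Sscrofa11.1 in the RefSeq annotation. HLA-DRA (chr7:24825037-24830650, plus strand), SLA-DQB1 (chr7:24969034-24977238, minus strand), TAP2 (chr7:25045085-25056915, minus strand) and TAP1 (chr7:25062772-25071989, minus strand) share the MHC region. CD74 lies at chr2:151402210-151409924 (minus strand), CIITA at chr3:32171706-32230775 (minus strand) and NLRC5 at chr6:18933179-19036288 (plus strand). B2M has a full gene model at chr1:126837721-126844043 and a partial one at chr1:126865767-126878501, both on the minus strand, so its counts are uncertain where reads fit both. CIITA and its cofactors act through a promoter module made of an X box and, further towards the gene, a Y box. The stretch that holds an X box core (GNNACNNNTG) followed after 10 to 35 bases by a Y box (ATTGG or its reverse complement CCAAT) is shown for the class II members that held it, CD74, HLA-DRA and SLA-DQB1, and beside them for SLA-DMA and SLA-DMB, chains of the molecule that loads peptides onto class II. It was also found before SLA-DRB1 and, on the opposite strand and with 10 bases between the boxes, before the class II pathway gene SLA-DOA. Neither is shown. The pair was not found in the windows of the class II pathway genes SLA-DQA1, SLA-DOB, CTSS and RFX5 or of CIITA. Each line runs 5′ to 3′ on the strand of the gene, with both boxes in capitals. The letters searched were chosen after the sequences had been seen.
CD74: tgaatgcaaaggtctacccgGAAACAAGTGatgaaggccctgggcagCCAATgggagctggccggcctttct
HLA-DRA: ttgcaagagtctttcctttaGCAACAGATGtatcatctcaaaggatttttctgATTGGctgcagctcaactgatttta
SLA-DQB1: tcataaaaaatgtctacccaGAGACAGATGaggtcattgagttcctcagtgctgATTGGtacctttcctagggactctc
SLA-DMA: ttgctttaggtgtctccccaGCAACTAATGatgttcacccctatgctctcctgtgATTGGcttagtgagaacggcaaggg
SLA-DMB: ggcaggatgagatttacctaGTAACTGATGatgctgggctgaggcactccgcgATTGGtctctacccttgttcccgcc
The CD74 stretch (chr2:151409947-151410018) lies 23 to 94 bases before the annotated gene start, that of HLA-DRA (chr7:24824944-24825021) 16 to 93 bases and that of SLA-DQB1 (chr7:24977302-24977380) 64 to 142 bases. Those of SLA-DMA and SLA-DMB are at chr7:25137968-25138047 and chr7:25125115-25125192. The pair of boxes, searched on both strands of the 250 bases before each gene start, was present in 289 of 19556 windows (1.48%).

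For class I, an interferon-stimulated response element (GAAANNGAAA) was searched in the same windows and was present in 589 of 19556 (3.01%). B2M held one within 49 bases of its annotated start (chr1:126844044-126844092, minus strand), shown with the element in capitals because the class I genes were set against interferon-stimulated genes below.
B2M: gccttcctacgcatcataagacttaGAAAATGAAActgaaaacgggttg
Neither set of letters was present in the windows of CIITA, NLRC5, TAP1 and TAP2, which says only that these letters are not in those windows. Of the class I pathway genes PSMB8 and PSMB9, PSMB9 held the element. Its window (chr7:25071883-25072132) overlaps that of TAP1 (chr7:25071990-25072239), a gene on the other strand.

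Counts were unique molecular identifiers (UMIs, each standing for 1 captured RNA molecule) per gene and barcode. Total UMIs ranged from 18962138 to 53165191 per gland, with 126833 of 128233 nuclei kept, and were 42815421 and 17906403 in the G90 and PI2 sections and 84971814 and 46923887 in L0 and L20 milk. Nuclei were given a cell class when they held UMIs of at least 2 of its marker genes and fewer than 2 of any other. There were 2 exceptions. Nuclei with at least 2 myoepithelial markers counted as myoepithelial whatever their luminal markers, and lymphatic endothelial likewise went before blood endothelial. No marker is an antigen presentation gene of the set. This gate gave a class to 83390 nuclei, of which 56829 were luminal epithelial, 7215 fibroblast, 4797 myoepithelial, 4009 blood endothelial, 3302 T and NK, 3174 lymphatic endothelial and 3010 macrophage. Other nuclei with at least 2 markers of more than 1 class were called mixed and made up between 3.36% and 38.6% of a gland. Luminal nuclei were 4.98% of the L20 replicate 2 gland and between 15.4% and 76.8% of the others, and macrophage nuclei were 8.05% of the same gland and between 0.383% and 3.66% of the others. Libraries shared at most 284 barcodes (1.52% of the smaller library). Levels are given as UMIs of the gene for every 1000000 UMIs of the nuclei summed (CPM). In such sums, fewer cells of a type and less RNA per cell cannot be told apart.

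The first question was whether the genes changed in the gland between stages. HLA-DRA stood at 65.9 and 8.37 CPM in the G90 glands (replicates 1 and 2), 11.7 and 5.34 CPM in those of L0, 85.9 and 92.8 in those of L20, 37.4 and 39.1 in those of PI2, and 285 and 127 in those of PI7. For SLA-DQB1 the G90 glands had 40.3 and 7.96 CPM, the L0 glands 16.8 and 8.37, the L20 glands 32.0 and 110, the PI2 glands 55.2 and 20.1 and the PI7 glands 221 and 141. Both class II chains were thus highest in the PI7 glands, whose values did not overlap with those of any other stage. The classes that carry class II varied in number too. Macrophage nuclei were 3.66% and 2.80% of the kept nuclei in the PI7 glands, 1.65% and 0.578% (G90), 0.393% and 0.383% (L0), 2.44% and 8.05% (L20), and 0.835% and 1.29% (PI2). T and NK nuclei were 4.98% and 6.46% of the PI7 glands and between 0.328% and 5.13% of the others. Blood endothelial nuclei were 6.91% and 4.14% of the PI7 glands and between 0.671% and 5.54% of the others, mixed nuclei were 38.6% and 27.8% against 3.36% to 35.3%, and the part of these shares in the gland levels was not tested. CIITA followed with 63.1 and 52.3 CPM (PI7) against 11.5 to 44.8 in the other 8 glands. CD74, the invariant chain, was at 823 and 458 CPM (PI7) but reached 496 and 416 (L20), so that its stages overlapped. The count of members with both PI7 glands above all others was 3 of 7, against 3.65% of the 17357 genes with a mean of at least 1 CPM. Here and below, only PI7 above and L0 below the rest were counted in this way, not other stages or directions. The members share glands, so such counts are not of independent genes.

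The class I members had another order of stages. B2M was at 195 and 104 CPM (L0) and between 235 and 857 in the other 8 glands, with PI7 replicate 1 and PI2 replicate 2 (802) highest. TAP2 was at 9.70 and 6.75 CPM (L0) and between 18.7 and 39.0 elsewhere. NLRC5 was at 34.6 and 26.2 CPM (L0) and between 47.2 and 180 elsewhere, highest in PI2 replicate 2. These 3 of the 7 members had both L0 glands below all the others, which 15.7% of all genes shared. The sows of a stage differed widely, as in PI2, where NLRC5 was 47.2 CPM in one and 180 in the other.

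**Figure D1:**
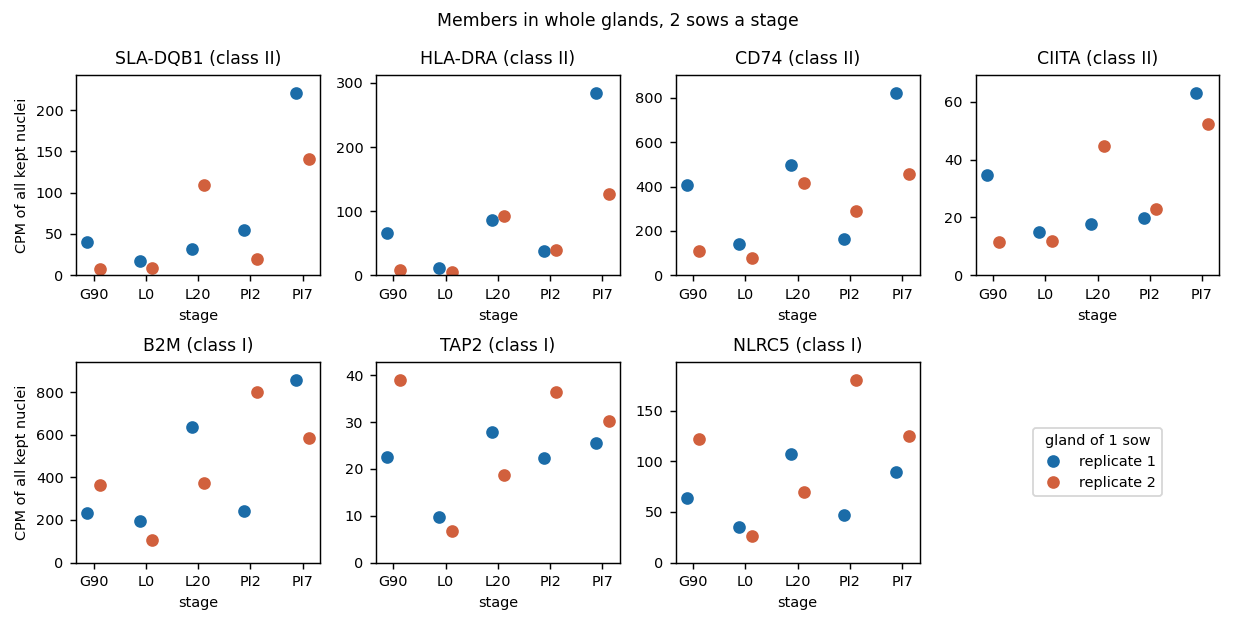
CPM of 7 antigen presentation genes over all kept nuclei of each gland (y axis, linear from 0) by stage (x axis), with 1 point for each sow (replicate 1 blue, replicate 2 orange). The PI7 glands lie above all others for SLA-DQB1, HLA-DRA and CIITA, and the L0 glands lie below all others for B2M, TAP2 and NLRC5.

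No member passed the test between adjacent stages over the whole gland. The fit used edgeR's quasi-likelihood test on all 10 glands, with p-values adjusted by Benjamini-Hochberg over 22695 genes and a gene called at an adjusted p under 0.05 and an absolute log2 fold change over 1. The share of all genes called was 0% for L0 against G90, 0% for L20 against L0, 0% for PI2 against L20 and 0% for PI7 against PI2. At an unadjusted p under 0.05 the members counted 1, 3, 0 and 2 of 7 in the same order, against 7.28%, 12.8%, 3.6% and 2.04% of all genes. The greatest difference was that of HLA-DRA in L20 against L0, a log2 fold change of 2.89 ± 0.75 (SE) with an adjusted p of 0.193 in edgeR, and it was called by DESeq2 (2.88, adjusted p = 0.0063) and by edgeR without its filter on low counts (adjusted p = 0.0442). In PI7 against PI2, HLA-DRA differed by 1.98 ± 0.72 and SLA-DQB1 by 1.89 ± 0.72 on the log2 scale (edgeR adjusted p = 0.998 for each). Over glands left out these differences ran from 1.63 to 2.20 and from 1.37 to 2.67, and that of HLA-DRA in L20 against L0 from 2.44 to 3.54. These comparisons share glands, so they are not independent of each other.

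Differences between cell classes did pass the test. Among classes with at least 20 nuclei in a gland, the class II genes had their highest medians over glands in macrophage nuclei, though not in every gland. Dendritic and neutrophil nuclei numbered at most 14 and 15 in a gland, so they entered no fit or ranking. HLA-DRA in macrophage nuclei was at 1237 and 491 CPM (G90), 839 and 682 (L0), 625 and 220 (L20), 872 and 982 (PI2), and 1042 and 718 (PI7). In luminal epithelial nuclei of the same glands it was at 15.5 and 2.81, 2.29 and 0.719, 41.9 and 13.8, 15.7 and 9.46, and 89.2 and 38.0 CPM. Every macrophage value lay above every luminal value. The log2 fold change of macrophage over luminal nuclei, with the gland as a block, was 5.65 ± 0.35 for HLA-DRA (edgeR adjusted p = 9.0e-26), 5.07 ± 0.27 for SLA-DQB1, 4.20 ± 0.27 for CIITA and 3.25 ± 0.23 for CD74, in each case higher in 10 of 10 glands. Of the 7 members, 6 were called higher in macrophage nuclei, against 16.4% of all 14257 genes tested. The exception was TAP2 (0.38 ± 0.25, edgeR adjusted p = 0.197), while B2M (1.12 ± 0.22) was near the fold limit and lost its call without G90 replicate 1 (0.88), G90 replicate 2 (0.83) or PI7 replicate 2 (0.98).

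After macrophages, class II was high in B and in blood endothelial nuclei. Median HLA-DRA levels over glands ran from 778 CPM in macrophage nuclei (range 220 to 1237, 10 glands) to 465 in B nuclei (334 to 623, 132 nuclei in 3 glands), 229 in blood endothelial nuclei (76.7 to 480) and 83.6 in T and NK nuclei (27.7 to 229). Macrophage nuclei exceeded blood endothelial nuclei of their gland in 10 of 10 glands for HLA-DRA and in 9 of 10 for SLA-DQB1, CD74 and CIITA. For HLA-DRA, B nuclei lay above macrophage nuclei in L20 replicate 2 (334 against 220 CPM) and below them in G90 replicate 1 and PI7 replicate 1. For CIITA they lay above in PI7 replicate 1 (262 against 203 CPM) and below in G90 replicate 1 and L20 replicate 2. The ranges of B and blood endothelial nuclei overlapped, as did those of blood endothelial and T and NK nuclei. SLA-DQB1 kept the same order, with medians of 694, 273, 200 and 68.5 CPM, and so did CIITA, with 273, 232, 99.9 and 57.5 CPM. CD74 had medians of 1989 CPM in macrophage, 1258 in B and 1219 in blood endothelial nuclei against 445 in T and NK nuclei.

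Blood endothelial nuclei thus held class II transcripts well above the epithelium. All 7 members were called higher there than in luminal nuclei (18.1% of all genes), and TAP2 lost its call without PI2 replicate 1 (0.84). The log2 fold changes were 3.92 for HLA-DRA, 3.57 for SLA-DQB1, 3.04 for CIITA and 2.63 for CD74. The summed level of 9 leukocyte genes, which bears on stray RNA of immune cells, had a median of 733 CPM in blood endothelial nuclei (294 to 1142), 679 in luminal nuclei (465 to 920) and 4566 in macrophage nuclei (2637 to 7091). Blood endothelial and luminal nuclei overlapped in that level, while their class II levels differed, and the part of stray RNA in these levels was not tested. In lymphatic endothelial nuclei 5 of 7 members were called higher (13.6% of all genes), with a log2 fold change of 1.24 for HLA-DRA. The count was 2 without G90 replicate 2, 3 without L20 replicate 2 and 3 without PI7 replicate 2. The gate of these nuclei allowed blood endothelial markers as well.

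The class I members were highest in other classes. B2M had its highest median in blood endothelial nuclei (1383 CPM, range 754 to 2465), followed by T and NK (908, 686 to 1221) and macrophage nuclei (815, 310 to 1157). Luminal epithelial nuclei were lower (307, 85.5 to 748), with B, plasma, lymphatic endothelial, mural, myoepithelial and fibroblast nuclei between them and macrophage nuclei. The ranges of neighbours among the first 3 classes overlapped, but blood endothelial nuclei exceeded macrophage nuclei of their gland in 9 of 10 glands. NLRC5, the class I transactivator, was highest in T and NK nuclei, at 594 and 747 CPM (G90), 459 and 517 (L0), 298 and 503 (L20), 940 and 742 (PI2), and 356 and 958 (PI7). It was above the macrophage level of the same gland in 10 of 10 glands, where it ranged from 68.9 to 394 CPM. TAP2 was also highest in T and NK nuclei (median 73.6 CPM, 36.9 to 187) and exceeded macrophage nuclei (24.3, 14.7 to 71.4) in 9 of 10 glands. For HLA-DRA, SLA-DQB1 and CD74, T and NK nuclei exceeded macrophage nuclei in 0 of 10 glands, and for CIITA in 1 of 10 (L20 replicate 2, 96.0 against 70.4 CPM).

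In the test against luminal nuclei, all 7 members were called higher in T and NK nuclei (19.4% of all genes), led by NLRC5 with a log2 fold change of 3.28, and 6 of 7 in B nuclei (7.19%), B2M being the exception (0.84, edgeR adjusted p = 0.0919). The TAP2 call in B nuclei was lost in each of the 7 fits run with a gland left out (edgeR adjusted p between 0.0523 and 0.0853). None of these fits left out a gland with enough B nuclei, because dropping any of those 3 glands removed the class. How far the B calls rest on 1 gland was thus not tested. In fibroblast nuclei 1 of 7 was called (16.4%), namely HLA-DRA (1.21), which lost its call without G90 replicate 2 (0.96). Mural nuclei (9.89%) and plasma nuclei (5.65%) had 1 of 7 called each, NLRC5 in both cases (1.42 and 2.07). With DESeq2 the counts were 4 and 3 of 7, where 19.5% and 20.1% of all genes were called higher, and the mural count was 0 with mixed nuclei given to a class (8.5% of all genes) or without the gland block (9.47%). The mural call was also lost without PI2 replicate 1, PI7 replicate 1 or PI7 replicate 2 (0.93 to 1.21). In myoepithelial nuclei 0 of 7 were called by edgeR or DESeq2 (3.69% of all genes in edgeR), and 0 had an unadjusted p under 0.05 in edgeR (14.2% of all genes), where HLA-DRA differed from luminal nuclei by 0.36 ± 0.32 (SE).

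**Figure D2:**
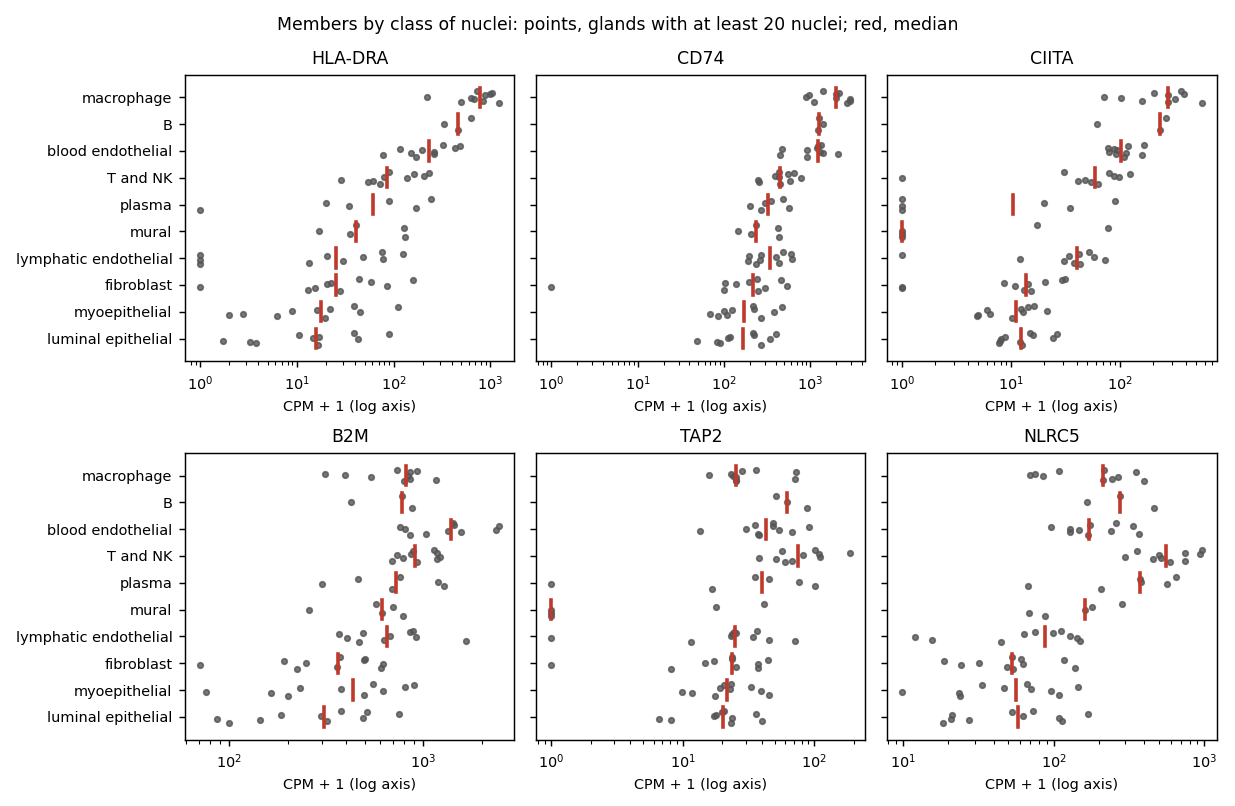
CPM + 1 on a log axis (x axis) of 6 antigen presentation genes in 10 gated classes (y axis). Points are glands with at least 20 nuclei of the class and red marks are medians. By median, macrophage nuclei lead for HLA-DRA, CD74 and CIITA, blood endothelial nuclei for B2M, and T and NK nuclei for TAP2 and NLRC5.

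Other genes of both pathways were counted from fixed lists. Of 17 class II pathway genes tested, 11 were called higher and 0 lower in macrophage nuclei than in luminal nuclei (16.4% and 13.7% of all genes), with a median log2 fold change of 3.16 against −0.03 for all genes. These were the loading chains SLA-DMB (5.32) and SLA-DMA (4.36), SLA-DOA (4.97), and the endosomal enzymes CTSS (3.69), CTSL (3.65), LGMN (2.70) and IFI30 (4.14). The others were the ubiquitin ligase MARCHF1 (3.16) that takes class II off the surface, and the costimulatory CD80 (5.45), CD86 (5.04) and CD40 (1.59). RFX5, a subunit of the factor that binds the X box, was at −0.48 and was not called (edgeR adjusted p = 0.0906). Blood endothelial nuclei had 7 of 17 called higher and 0 lower (18.1% and 10.1% of all genes), with SLA-DOA at 3.29, SLA-DMB at 2.99, SLA-DMA at 2.89, CD86 at 2.69, CD80 at 2.18, CD40 at 1.32 and CTSS at 1.27. B nuclei had 10 of 17 higher and 1 lower (NFYC, −1.45), against 7.19% and 9.45% of all genes. Besides HLA-DOB (3.45), a chain typical of B cells, the 10 were CD80 (4.84), SLA-DOA (4.22), CD86 (3.92), SLA-DMB (3.87), SLA-DMA (3.77), CD40 (2.57), CTSL (2.36), CTSS (2.34) and LGMN (1.32). T and NK nuclei had 5 of 17 higher and 2 lower, the latter being CD40 (−1.76) and RFX5 (−1.20), against 19.4% of all genes higher and 14.5% lower. The 5 were CD80 (4.54), CD86 (3.43), SLA-DMA (2.44), SLA-DMB (2.11) and SLA-DOA (2.09). Fibroblast nuclei had 4 of 17 higher, namely IFI30 (2.40), CD86 (1.58), SLA-DMB (1.48) and SLA-DOA (1.40), and MARCHF1 lower (−1.08), against 16.4% and 9.66% of all genes. Lymphatic endothelial nuclei had 3 of 17 higher, namely SLA-DMA (1.15), LGMN (1.11) and CD40 (1.02), and MARCHF1 lower (−1.48), against 13.6% and 12.8%. Plasma nuclei had CD80 higher (3.18) and LGMN lower (−2.33), against 5.65% and 16.1%, and mural nuclei had 0 higher and RFX5 lower (−2.56), against 9.89% and 11.3%.

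Of 19 class I and interferon pathway genes measured, 16 could be tested between classes. Macrophage nuclei had 7 of 16 called higher and 0 lower (16.4% and 13.7% of all genes), with the receptor chain IFNGR1 at 2.67, the inhibitor SOCS1 at 1.71, the immunoproteasome subunits PSMB8 at 1.5 and PSMB10 at 1.18, IRF1 and JAK2 at 1.28 and the chaperone CALR at 1.04. T and NK nuclei had 4 of 16 higher, against 19.4% of all genes, namely SOCS1 (3.79), PSMB8 (2.89), IRF1 (1.90) and PSMB9 (1.73), and 1 lower, IFNGR2 (−2.02). Blood endothelial nuclei had 4 of 16 higher, against 18.1% of all genes, namely IFNGR1 (2.60), PSMB8 (2.04), SOCS1 (1.60) and IRF1 (1.18), and again 1 lower, IFNGR2 (−1.53). Of all genes, 14.5% (T and NK) and 10.1% (blood endothelial) were called lower. Of the same 16 genes, plasma nuclei had 4 higher, against 5.65% of all genes, namely PSMB8 (1.75), CALR (1.43), PSMB9 (1.38) and PDIA3 (1.12). They had ERAP1 (−2.10) and IFNGR2 (−1.43) lower, against 16.1% of all genes. Fibroblast nuclei had SOCS1 (1.35) and IFNGR1 (1.07) higher and lymphatic endothelial nuclei IFNGR1 (2.70) and PSMB8 (1.39), each with IFNGR2 lower (−1.54 and −1.85). Of all genes, 16.4% (fibroblast) and 13.6% (lymphatic endothelial) were called higher and 9.66% and 12.8% lower. Mural nuclei had 0 higher and IFNGR2 (−1.74) and CANX (−1.07) lower, and B nuclei had 0 called in either direction. The shares of all genes were 9.89% higher and 11.3% lower in mural nuclei, and 7.19% and 9.45% in B nuclei. In myoepithelial nuclei 0 genes of either list were called (3.69% of all genes higher and 0.112% lower). Between stages 0 genes of either list were called in the whole gland, in luminal or in macrophage nuclei. In the order L0 against G90, L20 against L0, PI2 against L20 and PI7 against PI2, the class II list had 1, 7, 4 and 6 of 17 genes at an unadjusted p under 0.05 in the whole gland (7.28%, 12.8%, 3.6% and 2.04% of all genes), 1, 5, 1 and 3 of 17 in luminal nuclei (11.2%, 11.7%, 3.12% and 2.5%) and 1, 4, 8 and 0 of 14 in macrophage nuclei (6.32%, 8.74%, 5.41% and 3.28%). The class I list had 2, 3, 0 and 0 of 17, 4, 2, 0 and 0 of 17, and 1, 1, 1 and 0 of 15.

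Class II transcripts in luminal epithelial nuclei were set beside those in myoepithelial nuclei, whose gate allowed luminal markers as well. The share of luminal nuclei with an HLA-DRA UMI was 3.97% and 0.766% (G90), 0.411% and 0.154% (L0), 6.93% and 3.32% (L20), 2.61% and 1.38% (PI2), and 14.0% and 6.86% (PI7). In myoepithelial nuclei, those of contractile cells, it was 5.68% and 1.57%, 0.353% and 0.495%, 8.61% and 2.92%, 2.78% and 3.12%, and 21.1% and 9.28%. The luminal share was below the myoepithelial share in 8 of 10 glands, the exceptions being L0 replicate 1 and L20 replicate 2. Whether luminal or myoepithelial nuclei transcribe HLA-DRA, and how much of either share is stray RNA, was not tested. The median UMIs per nucleus were 2171 in luminal and 2493 in myoepithelial nuclei (medians over glands). By share of nuclei, myoepithelial nuclei were higher in 8 of 10 glands for SLA-DQB1 and in 4 of 10 for CIITA. In CPM the median of HLA-DRA was 14.6 for luminal and 16.8 for myoepithelial nuclei, and myoepithelial nuclei were higher in 6 of 10 glands for HLA-DRA, 3 of 10 for SLA-DQB1, 7 of 10 for CD74 and 2 of 10 for CIITA. The luminal level came to a median of 1.53% of the macrophage level for HLA-DRA (0.105% to 8.56%), 2.32% for SLA-DQB1 and 3.84% for CIITA, while the 9 leukocyte genes came to 16.1% (7.06% to 21.3%).

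CD74 was higher relative to HLA-DRA in the epithelium than in macrophage nuclei. For each HLA-DRA UMI, macrophage nuclei held a median of 2.22 CD74 UMIs (1.13 to 4.25) and blood endothelial nuclei 4.84 (2.59 to 9.42). Myoepithelial nuclei held 8.39 (4.32 to 14.5, 6 glands) and luminal nuclei 12.7 (4.48 to 66.3, 10 glands). Lymphatic endothelial (7.57, 4 glands), fibroblast (5.62, 7 glands), T and NK (4.75, 7 glands) and B nuclei (2.6, 3 glands) were above the macrophage median too, so a higher ratio was not particular to the epithelium. In the 6 glands with a myoepithelial value the luminal median was 7.83 (4.48 to 23.3), and the luminal ratio was the higher one in 4 of them. The luminal ratio exceeded the macrophage ratio of the same gland in 10 of 10 glands. The ratio of 66.3, in L0 replicate 2, rested on 12 HLA-DRA UMIs, and the part of stray RNA in these ratios was not tested. The luminal level of CD74 came to a median of 11.5% of the macrophage level. Myoepithelial nuclei had nearly the same CD74 level as luminal nuclei (169 against 167 CPM as medians), and the share of nuclei with a CD74 UMI was higher in myoepithelial nuclei in 10 of 10 glands.

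Much of the class II signal of a gland lay outside clearly gated nuclei. Mixed nuclei held between 22.1% and 60.4% of the HLA-DRA UMIs of a gland (median 42.2%), macrophage nuclei between 10.1% and 26.4% (15.3%), luminal nuclei between 0.876% and 27.6% (13.4%) and blood endothelial nuclei between 3.82% and 19.2% (7.45%). The B2M UMIs were divided otherwise, with a median of 36.3% in luminal, 30.3% in mixed and 1.73% in macrophage nuclei. Of all UMIs of kept nuclei, mixed nuclei held from 909550 of 19841785 (L0 replicate 2) to 19917190 of 38846978 (PI7 replicate 1). Luminal nuclei held from 2322998 of 39357808 (L20 replicate 2) to 16684460 of 19841785 (L0 replicate 2). Macrophage nuclei held from 57238 of 28053363 (L0 replicate 1) to 2656242 of 39357808 (L20 replicate 2). The shares of member UMIs are to be read beside these. Doublets, nuclei with stray RNA and nuclei of 2 classes in contact were not separated among the mixed nuclei.

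**Figure D3:**
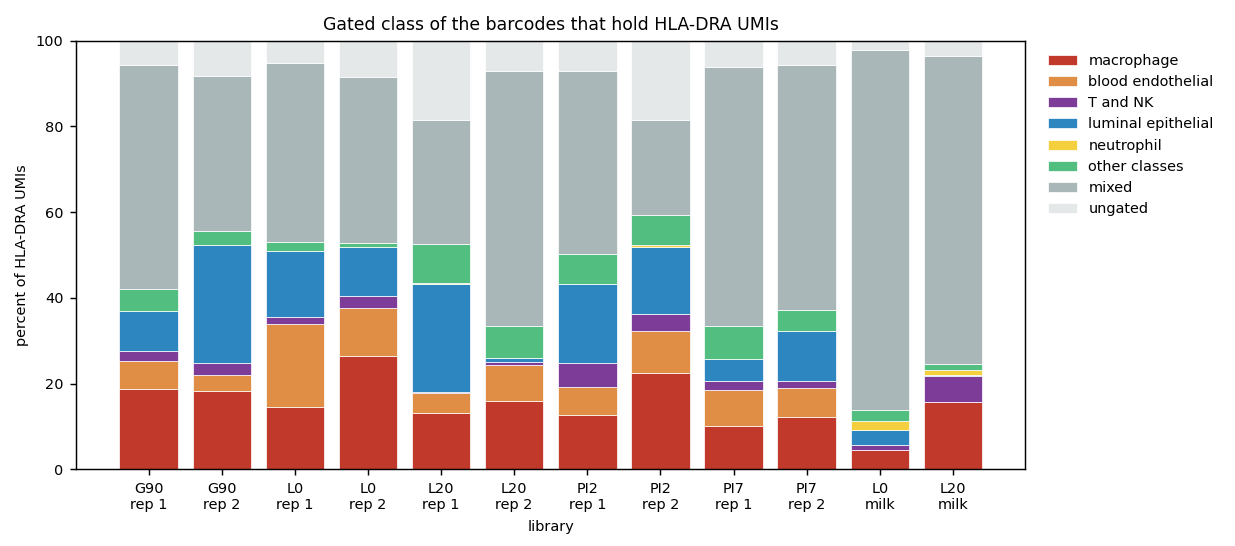
Percent of the HLA-DRA UMIs (y axis, stacked bars from 0 to the whole) held by each gated class, mixed and ungated barcodes in 10 glands and 2 milk libraries (x axis). Mixed barcodes hold a median of 42.2% in glands, macrophage nuclei 15.3% and luminal nuclei 13.4%.

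Stages were then compared within luminal nuclei. TAP2, the peptide transporter subunit, was at 22.4 and 39.3 CPM (G90), 7.10 and 5.63 (L0), 22.6 and 16.4 (L20), 16.7 and 35.3 (PI2), and 19.0 and 19.7 (PI7), lowest in both L0 glands. CD74 was at 81.7 and 47.7 CPM (L0) and between 90.5 and 399 in the others. With HLA-DRA these made 3 of 7 members with both L0 glands below the rest, against 14.3% of all genes, and SLA-DQB1 was the 1 member of 7 with both PI7 glands (79.6 and 45.6 CPM) above the rest, against 3.25%. Among 18954 genes tested, 0 of 7 members were called, and the share of all genes called was 0.00528% for L0 against G90, 0% for L20 against L0, 0% for PI2 against L20 and 0% for PI7 against PI2. At an unadjusted p under 0.05 the members counted 2, 3, 0 and 2 of 7, against 11.2%, 11.7%, 3.12% and 2.5% of all genes.

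The luminal differences that came closest were those of HLA-DRA and TAP2. HLA-DRA in L20 against L0 differed by a log2 fold change of 3.97 ± 0.95 (edgeR adjusted p = 0.193), which ran from 2.53 (without L20 replicate 1) to 5.02 (without L0 replicate 1) over glands left out, with adjusted p between 0.102 and 0.903, and rested on 50 and 12 HLA-DRA UMIs (L0) and 463 and 32 (L20). TAP2 in L0 against G90 differed by −2.02 ± 0.61 (edgeR adjusted p = 0.235), ran from −2.62 to −1.20 over glands left out, the latter without G90 replicate 2 (adjusted p between 0.123 and 0.960), and was called in a fit of these stages alone (adjusted p = 0.0356) and by DESeq2 (adjusted p = 0.0396). For HLA-DRA, a difference between stages in luminal transcription and one in background RNA cannot be told apart here. In myoepithelial nuclei HLA-DRA had its lowest values at L0 too (0.982 and 1.78 CPM), with 44.2 and 7.80 CPM (L20) and 110 and 38.0 CPM (PI7).

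In macrophage nuclei the stages took another order. SLA-DQB1 was at 634 and 224 CPM (G90), 943 and 950 (L0), 218 and 242 (L20), 953 and 447 (PI2), and 790 and 755 (PI7). The L20 values were low and close to that of G90 replicate 2. CIITA was at 558 and 273 CPM (G90), 157 and 317 (L0), 99.9 and 70.4 (L20), 273 and 387 (PI2), and 203 and 358 (PI7), and thus lowest in both L20 glands. HLA-DRA did not separate L20 in this way, since L20 replicate 1 was at 625 CPM. The summed leukocyte genes in macrophage nuclei were at 2637 and 4511 CPM (L20) and 5136 and 7091 (L0). They ranged from 3334 to 5252 CPM in the G90, PI2 and PI7 glands, and their bearing on the stage values was not tested.

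Of the 7 members 0 were called between stages in macrophage nuclei by edgeR or DESeq2, and edgeR called 0% of the 7498 genes tested for L0 against G90, 0% for L20 against L0, 0% for PI2 against L20 and 0% for PI7 against PI2. The members at an unadjusted p under 0.05 counted 0, 3, 3 and 0 of 7, against 6.32%, 8.74%, 5.41% and 3.28% of all genes. In L20 against L0, SLA-DQB1 differed by −1.84 ± 0.53 (edgeR adjusted p = 0.442), CIITA by −1.26 ± 0.57 and NLRC5 by −1.55 ± 0.67 on the log2 scale. In PI2 against L20, CIITA differed by 1.87 ± 0.51 (edgeR adjusted p = 0.838), SLA-DQB1 by 1.47 ± 0.52 and NLRC5 by 1.43 ± 0.61. The L20 gland with most macrophage nuclei, replicate 2, held 1220 of them, and the gland with fewest, L0 replicate 2, held 36.

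**Figure D4:**
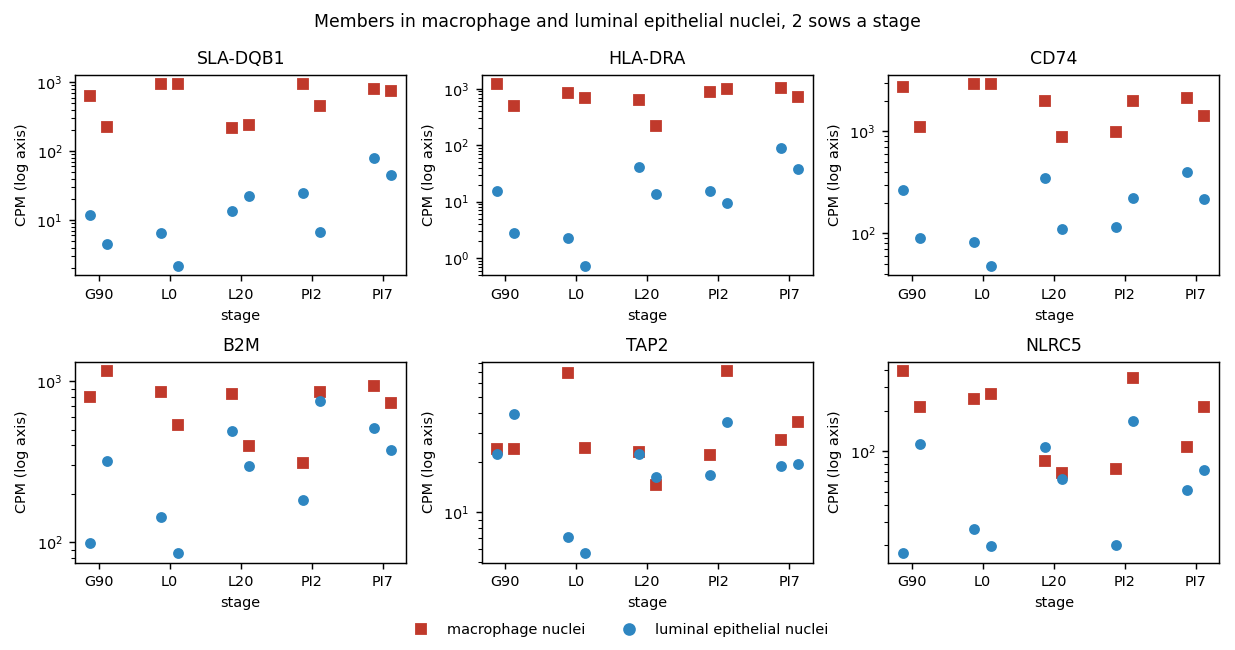
CPM on a log axis (y axis) of 6 antigen presentation genes by stage (x axis) in macrophage nuclei (red squares) and luminal epithelial nuclei (blue circles), with 1 point for each sow. HLA-DRA and SLA-DQB1 in macrophage nuclei lie above the luminal values of every gland, while B2M, TAP2 and NLRC5 of both classes overlap.

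The ratio of DQ to DR transcripts differed between sows of 1 stage. In macrophage nuclei, SLA-DQB1 UMIs per HLA-DRA UMI were 0.51 and 0.46 (G90), 1.12 and 1.39 (L0), 0.35 and 1.1 (L20), 1.09 and 0.45 (PI2), and 0.76 and 1.05 (PI7). In blood endothelial nuclei of the same glands they were 0.67 and 1.06, 1.24 and 1.67, 0.44 and 1.29, 1.21 and 0.35, and 0.71 and 0.99. L20 replicate 1 and PI2 replicate 2 were low in both classes and in luminal nuclei (0.32 and 0.72), and the other sow of their stage was above 1 in all 3 classes. SLA-DQB1 is highly polymorphic, and whether the alleles of a sow changed how many of its reads were counted was not tested.

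Interferon-stimulated genes varied strongly between sows, and the class I members were set beside them. Luminal nuclei with UMIs of at least 2 of 14 interferon-stimulated genes made up 8.20% and 94.8% (G90), 18.2% and 9.18% (L0), 24.2% and 28.0% (L20), 7.63% and 55.3% (PI2), and 8.27% and 26.0% (PI7). NLRC5 in luminal nuclei of these glands was at 17.4 and 113, 26.6 and 19.7, 107 and 62.0, 20.2 and 167, and 51.7 and 72.1 CPM. B2M was at 98.8 and 318, 144 and 85.5, 489 and 297, 183 and 748, and 515 and 375 CPM. At G90, L0 and PI2, the sow with more such nuclei had the higher NLRC5, B2M and TAP2. At L20, where the sows were close in that share, that sow had the lower NLRC5, B2M and TAP2, and at PI7 it had the lower B2M.

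Within glands, nuclei with at least 2 interferon-stimulated genes were compared with those holding none. Of the 7 members 0 passed an adjusted p of 0.05 in the exact two-sided sign-flip permutation test over 10 glands, and 1 had an unadjusted p under 0.05. TAP2 was higher by 0.36 ± 0.56 (SD, n = 10) on the log2(CPM + 1) scale in 7 of 10 glands (exact p = 0.0293, adjusted 0.205). Without G90 replicate 2, where the nuclei with none held 2 TAP2 UMIs, the mean was 0.20. B2M differed by 0.04 ± 0.32, NLRC5 by 0.01 ± 0.53, SLA-DQB1 by −0.17 ± 0.67, CD74 by −0.10 ± 0.20 and CIITA by −0.34 ± 0.66, and HLA-DRA was lower in 8 of 10 glands (−0.43 ± 0.69, exact p = 0.084, adjusted 0.232). The interferon-stimulated nuclei were deeper, with a median of 2789.5 against 626.5 UMIs in G90 replicate 2. When the other nuclei were weighted to the same depth, an alternative added after seeing the data, TAP2 was higher by 0.71 in 10 of 10 glands (exact permutation test, adjusted p = 0.0137), and it was the 1 member to pass.

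Luminal subclasses were also split by markers, and the 4 class II members were compared with the other luminal nuclei in the exact two-sided sign-flip permutation test over 10 glands, adjusted over 12 comparisons. In hormone-sensing luminal nuclei HLA-DRA was lower in 10 of 10 glands (−0.86 ± 0.53 SD on the log2 scale, exact p = 0.00195, the smallest this design can give, adjusted 0.0234). SLA-DQB1 (−0.75) and CIITA (−1.51) were lower in 8 of 10 glands each (exact permutation test, adjusted p = 0.0352 for both), and CD74 did not pass (−0.31, adjusted 0.127). In nuclei with KIT, HLA-DRA was lower in 9 of 10 glands (−0.67 ± 0.66, exact adjusted p = 0.0352) and the others did not pass, and in nuclei with FDCSP and PIGR 0 of 4 passed. The hormone-sensing nuclei held only 86 HLA-DRA, 91 SLA-DQB1 and 25 CIITA UMIs in all, and CIITA (SD 1.70) and SLA-DQB1 each failed the exact test in most fits with a gland left out (adjusted p up to 0.0703), as did HLA-DRA in nuclei with KIT. They were also deeper (medians of 3085 to 5558.5 against 1566 to 3034 UMIs). With the other nuclei weighted to the same depth 0 of the 4 members passed in either subclass, and without nuclei holding a leukocyte gene UMI the HLA-DRA difference turned to 0.32 in hormone-sensing nuclei, over the 4 glands that still had enough of them, where the smallest p this test can give is 0.125.

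Genes whose levels ran most like those of the members were found over 85 sums of a class in a gland (11 classes, 10 glands) among 8240 genes, as Pearson's r of log2(CPM + 1). The sums of 1 gland share a library, and the values are descriptions. HLA-DRA ran closest to CD74 (0.82), SLA-DMB (0.80), ITGAM (0.77), SLA-DQB1 (0.76) and CTSS (0.75). CIITA ran closest to CLEC2B (0.78), SLA-DMA (0.76), SLA-DQB1 (0.75), PLCB2 (0.74) and GAB3 (0.74). B2M ran closest to CD74 (0.71), TMSB10 (0.69), NLRC5 (0.65), PTPRE (0.63) and FLI1 (0.63), and NLRC5 to PIP4K2A (0.74), PRKCB (0.72), RHOH (0.71), LCP2 (0.69) and NFATC3 (0.69). Pairs of class II members had r between 0.64 and 0.82, and among the class I members B2M with NLRC5 had 0.65, B2M with TAP2 0.54 and TAP2 with NLRC5 0.40.

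Tissue sections gave all 8 genes but had 1 section a stage, so no test was possible and intervals cover counting error only. HLA-DRA was at 211 CPM in the G90 section (exact Poisson 95% interval 207 to 215) and 474 in the PI2 section (464 to 484), and SLA-DQB1 at 185 (180 to 189) and 518 (507 to 528). CD74 was at 6061 and 9487 CPM, or 28.7 and 20.0 UMIs for each HLA-DRA UMI. CIITA was at 13.9 and 22.5 CPM, B2M at 917 and 2480, TAP1 at 40.6 and 57.1, TAP2 at 23.3 and 28.7 and NLRC5 at 17.1 and 22.8. All 8 genes were higher in the PI2 section. The share of all genes higher there was not computed, so this count does not set these genes apart. Without the UMIs of 5 milk protein genes, which take a larger part of the G90 section, HLA-DRA was at 241 and 497 CPM, and the direction was the same for all 8 genes.

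Within a section, spots rich in immune markers were compared with the other spots. In the 10% of spots with the highest share of macrophage marker UMIs (473 of 4721 spots in G90, 225 of 2248 in PI2), HLA-DRA was 1.16 and 1.33 times its level in the other spots, and CD74 was 1.18 and 1.06 times. SLA-DQB1 was 1.26 and 1.27 times and B2M 1.13 and 1.2 times. CIITA was 0.951 and 1.72 times, TAP2 0.945 and 1.53 times and NLRC5 0.834 and 1.75 times. CIITA, TAP2 and NLRC5 had the lowest levels of the set in both sections, so their ratios carry the most counting error. Whether any ratio differs from 1 was not tested. TAP1 was at 40.6 CPM in both sets of G90 spots and at 1.16 times in PI2. In spots rich in T and NK markers, NLRC5 was 1.70 and 1.34 times, TAP1 1.51 and 1.2 times, TAP2 1.37 and 1.78 times and HLA-DRA 1.27 and 1.29 times its level elsewhere. CIITA was 1.55 and 1.43 times, SLA-DQB1 1.26 and 1.28 times and B2M 1.1 and 1.15 times, while CD74 was 0.917 and 0.924 times. Thinned to 1000 UMIs a spot, the macrophage ratio of HLA-DRA was 1.01 in G90 and 1.44 in PI2. Of the spots, 4673 of 4721 and 2136 of 2248 held markers of more than 1 class, so none was given to a class.

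Milk libraries held whole cells, mostly neutrophils among those with a class. Over all kept cells, HLA-DRA was at 235 CPM in L0 milk (232 to 238) and 586 in L20 milk (579 to 594), SLA-DQB1 at 253 and 639, CD74 at 1188 and 2094, and B2M at 1302 and 3496. TAP2 was at 28.9 and 59.8 CPM and NLRC5 at 27.6 and 61.1, whereas CIITA was at 4.26 (3.82 to 4.73) and 4.47 (3.86 to 5.15), not detectably different at this depth. With 1 library a stage no test was possible.

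Among milk cells with a class, HLA-DRA was higher in macrophages and in T and NK cells than in neutrophils and luminal cells. Most HLA-DRA UMIs lay in mixed cells, which held 83.9% of them in L0 and 71.9% in L20 milk. Macrophages held 4.44% and 15.8%, and T and NK cells 1.26% and 6.07%. Mixed cells also held 55728733 of all 80995806 UMIs of kept cells in L0 milk and 23235949 of 42948881 in L20 milk. In macrophages (311 and 424 cells) HLA-DRA was at 1046 CPM (976 to 1119) in L0 and 2160 (2094 to 2228) in L20 milk. In T and NK cells (274 and 1072) it was at 516 (452 to 585) and 786 (747 to 827). Neutrophils (8948 and 5700), which are not professional antigen presenting cells, were at 35.1 (31.8 to 38.7) and 42.0 (37.5 to 46.9), and luminal epithelial cells (1007 and 1026) at 83.4 (77.0 to 90.1) and 13.1 (9.72 to 17.4). The order of the milks for macrophages, and that of luminal cells and neutrophils in L0 milk, depended on the gate. With 3 markers for a class, macrophages were at 3334 CPM in L0 and 1793 in L20 milk, and with mixed cells given to a class at 2956 and 1360, so that the order of the milks turned. In L0 milk, luminal cells were at 42.4 against 56.2 in neutrophils with 3 markers and at 55.9 against 55.4 with mixed cells given to a class. In L20 milk luminal cells were below neutrophils under each of these gates, and both classes were at higher levels than those given above.

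CD74 in milk luminal cells was far above its level in neutrophils. It was at 1118 CPM (1094 to 1142) in L0 and 1571 (1532 to 1612) in L20 luminal cells against 240 (231 to 249) and 227 (216 to 238) in neutrophils. For each HLA-DRA UMI, luminal cells held 13.4 and 120 CD74 UMIs and macrophages 2.99 and 2.54. In milk as in the nuclei of the gland, the ratio was higher in luminal than in macrophage barcodes. T and NK cells held 3904 and 4400 CPM of CD74 and macrophages 3122 and 5484.

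The class I members of milk had neutrophils among their highest classes. B2M was at 4037 (4001 to 4073) and 5266 CPM (5214 to 5318) in neutrophils, 4090 and 5874 in T and NK cells, 2581 and 3714 in macrophages, and 360 and 846 in luminal cells. NLRC5 was at 90.8 and 182 CPM in neutrophils, 66.9 and 38.0 in macrophages, 38.8 and 57.6 in T and NK cells, and 9.66 in L20 luminal cells, with 85 UMIs in the luminal cells of L0. TAP2 was at 98.8 and 113 CPM in neutrophils against 9.24 and 7.51 in luminal cells. CIITA was low even in milk macrophages, where it stood at 12.4 CPM (10 UMIs) and 16.3 CPM (30 UMIs).

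**Figure D5:**
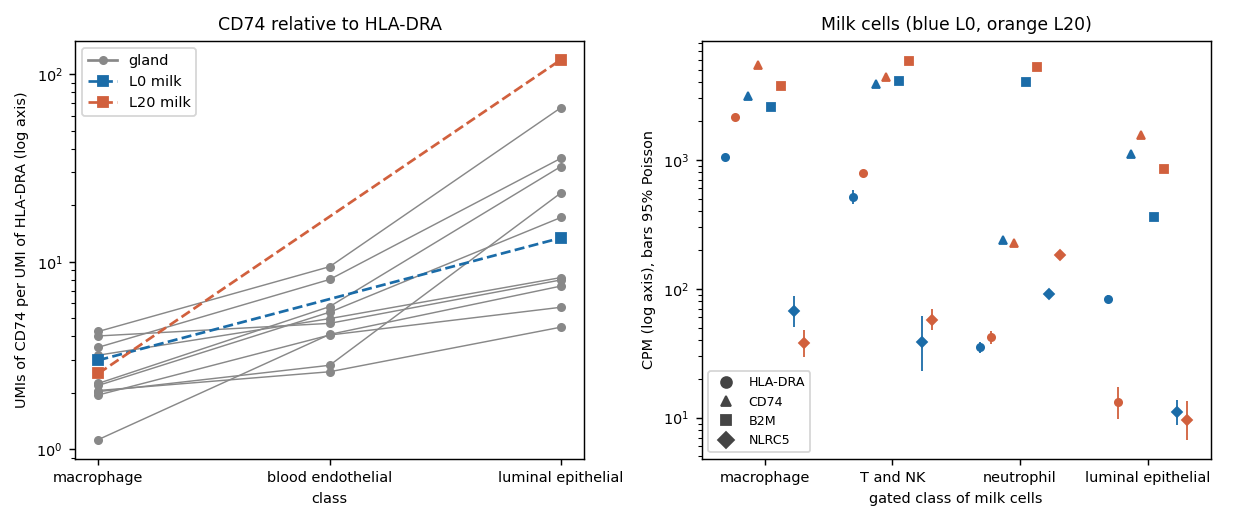
Left, CD74 UMIs for each HLA-DRA UMI (y axis, log) in macrophage, blood endothelial and luminal epithelial barcodes of glands and milk (x axis), with 1 point for each library. Right, CPM (y axis, log) of HLA-DRA, CD74, B2M and NLRC5 in 4 classes of milk cells (L0 blue, L20 orange) with exact Poisson 95% intervals. Of the classes plotted, luminal barcodes have the highest median ratio in glands (12.7) and the highest ratios in milk (13.4 and 120), where myoepithelial cells, not plotted, had 91.4 and 312 from 9 and 1 HLA-DRA UMIs, and CD74 in milk luminal cells (1118 and 1571 CPM) lies above that in neutrophils.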

How the data were processed

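The authors prepared GEXSCOPE libraries of gland nuclei and milk cells and counted them with CeleScope, and they counted sections with Space Ranger. The submitters' processing notes name Space Ranger 1.2.0, Seurat 4.3.0 and the Sscrofa11.1 build. The Space Ranger version differs between those notes and the file headers, and no source used here gives the annotation release. The UMI counts were used as the authors deposited them, as whole UMI counts per gene and barcode with no normalization and no removal of doublets or ambient RNA. Nuclei and cells needed 300 or more genes and no more than 25% mitochondrial UMIs (13 mitochondrial genes).

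The members and lists were chosen with earlier results of these data known. Each sow was 1 replicate, and nuclei were summed by gland and class. Sums of at least 20 nuclei entered the fits, in edgeR 4.0.16 (TMM normalization, its filter on low counts, quasi-likelihood test) in R 4.3.3 with limma 3.58.1, with DESeq2 1.42.0 as an alternative. The fits were run on simulated data with known changes, and the outcome is not reported here. A count of 0 members called between stages therefore does not show that their levels were equal. Nothing in the labels says that replicate numbers pair sows of different stages, and deviations from the stage means of sows with the same number correlated between −0.50 and 0.36, so no block was used. The SE given for edgeR was derived as the absolute log2 fold change divided by the square root of the F statistic, since its test reports none. Splits within luminal nuclei used log2(CPM + 1). Other alternatives were a gate of 3 markers, mixed nuclei given to the class with most markers, a pseudocount of 10 CPM, total UMIs as the only scaling, stricter filters on barcodes and nuclei, and leaving out each gland. Scrublet marked hardly any doublets in 9 glands, so removal of the 5% of barcodes with the highest scores was added as an alternative after seeing the data. Depth weighting in 5 bins was added likewise.

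The 8 members were named in each readout that gave them a value, TAP1 in sections only. Pathway genes were named where called, together with RFX5, CTSS, PSMB8, PSMB9 and IRF1, and 1 more gene of that rule is not reported here. Expression of SLA-1, SLA-DRB1, SLA-DQA1 and TAPBP was not analysed here. Likeness was ranked over genes with a mean of at least 20 CPM. A symbol came with the files for 15900 gene identifiers and from the reference for 676 more. Gene positions and promoter windows came from the RefSeq annotation and genome of Sscrofa11.1, where HLA-DRA was linked to SLA-DRA by name. Python 3.11.15 with numpy 2.4.6, pandas 2.3.3, scipy 1.17.1, scanpy 1.11.5 and matplotlib 3.10.9 was used. Depth is given in the report, and exact Poisson intervals cover counting error only.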

Additional observations from a re-analysis of the deposited data

Results flagged for a closer look

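In 4 of 19 sets of 10 glands, 1 gland lay farther from the rest than Dixon's 95% limit. For independent, normally distributed sets chance gives about 1 in 20. These sets share glands and nuclei, so the count does not show an excess over chance. In the comparison of luminal nuclei with and without interferon-stimulated genes, G90 replicate 2 had the lowest log2 difference of CIITA (−1.98, the next gland at −0.71) and the highest of TAP2 (1.76, the next at 0.72). That gland had 190 luminal nuclei without such genes, which held 5 CIITA and 2 TAP2 UMIs. SLA-DQB1 in luminal nuclei with KIT was lowest in L20 replicate 2 (−2.62, the next at −0.86), a gland with 754 luminal nuclei. CIITA in luminal nuclei with FDCSP and PIGR was lowest in PI7 replicate 1 (−1.42, the next at −0.52). The cause of these values was not tested.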

How the results depend on the processing

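Counts of called members between stages stayed at 0 in macrophage nuclei under each alternative run. They became 1 for L20 against L0 in the whole gland and in luminal nuclei, with DESeq2 and without the filter on low counts (HLA-DRA), and 1 for luminal L0 against G90 with DESeq2 and with only those stages fitted (TAP2). Over all genes the calls for whole-gland L20 against L0 were 0 in edgeR, 1157 in DESeq2 and 269 without the filter, for luminal L20 against L0 0, 707 and 375, and for luminal L0 against G90 they were 1, 806, 398 and, with only those stages, 1185. The labels do not say that replicate numbers pair the sows. With a replicate block 0 members were called between stages, and HLA-DRA in L20 against L0 differed by 2.98 (whole gland, edgeR adjusted p = 0.28) and 3.87 (luminal). Leaving out any 1 gland gave 0 members called in each stage comparison.

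Between classes, fibroblast counts were 0 with a gate of 3 markers, with mixed nuclei given to a class and without the gland block (0 to 1 over glands left out). Lymphatic counts were 3 without the filter, 2 with mixed nuclei given to a class and 2 without the gland block (2 to 5). Mural counts were 4 in DESeq2, 2 with total UMIs, and 0 with mixed nuclei given to a class or without the gland block (0 to 1), and plasma counts were 3 and 2 with DESeq2 and total UMIs. The share of all genes called higher was 19.5% (mural) and 20.1% (plasma) in DESeq2 and 11.9% and 9.29% with total UMIs, and between 12.4% and 15.2% (fibroblast) and 7.61% and 12.4% (lymphatic) under the alternatives named for them. The other class counts stayed within 1.5 times of those reported.

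The interferon split had 1 member past the test with depth weighting. Hormone-sensing counts were 0 with depth weighting and 0 without nuclei holding a leukocyte UMI (1 to 3 over glands left out), where HLA-DRA reversed to 0.32 but 4 glands remained and the test could not pass (smallest exact p 0.125), and KIT counts were 3 with a pseudocount of 10 CPM, 0 and 0 (0 to 3). In sections, the HLA-DRA ratio of macrophage-rich spots was 1.01 (G90) and 1.44 (PI2) after thinning, and that of T and NK spots was 1.43 and 1.44 in the top 5% and 1.14 and 1.01 after thinning. In milk, HLA-DRA with 3 markers, and with mixed cells given to a class, was at 42.4 and 55.9 CPM in L0 luminal cells, 21.7 and 23.9 in L20 luminal cells, 3334 and 2956 in L0 macrophages, 1793 and 1360 in L20 macrophages, 56.2 and 55.4 in L0 neutrophils, 102 and 106 in L20 neutrophils, and, with mixed cells only, 875 in L20 T and NK cells. With 500 or more genes and no more than 10% mitochondrial UMIs it was 56.5 and 91.2 in neutrophils and 2373 in L20 macrophages. The causes were not tested.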
